A study of Mus musculus with 2 samples.

Results

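The genes described here are the receptors and ligands of axon guidance: the Eph receptors with their ephrin ligands, the semaphorins with their plexin and neuropilin receptors, the slits with the Robo receptors, and the netrins with Dcc, Neo1 and the Unc5 receptors. They were chosen by gene symbol, which gave 70 of the 32285 genes in the deposited matrix. The rule used no measured value, but it was set with earlier results of these data known. Of the 70 genes, 65 had at least 100 UMIs over the nuclei kept, a UMI (unique molecular identifier) standing for 1 captured RNA molecule. Sema3g, Sema4f, Plxnb3, Ntn5 and Unc5a had fewer and are only named. Together the 70 genes held 550869 UMIs, 0.378% of the RNA counted.

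Eph receptors are receptor tyrosine kinases that bind ephrins on the surface of neighbouring cells, and this contact signal repels cells or keeps tissues apart at a boundary. A-type ephrins are held on the cell surface by a lipid anchor, and B-type ephrins span the membrane. Slits are secreted proteins that repel cells through Robo receptors. Netrins are secreted relatives of laminin that attract through Dcc and Neo1 (neogenin) and repel through Unc5 receptors. Semaphorins signal through plexins, and most of the secreted class 3 semaphorins also need a neuropilin. Outside the nervous system Nrp1, Nrp2 and Plxnd1 are best known from blood vessel growth, and Efnb2 with Ephb4 from the difference between arteries and veins. The gastrulating mouse embryo has no neurons.

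Mouse embryos at E7.0 (embryonic day 7) had been pooled and dissociated, and nuclear RNA and open chromatin were measured in the same nuclei (10x Genomics multiome). The series holds 1 RNA library and 1 accessibility library of that pool, with no treatment or genotype to compare and no second pool. The title, the age and the protocol give E7.0 embryos, whereas the source, tissue and cell type entries give small intestine, distal colon and goblet cells, and the strain entry gives RedMUC298trTg. A list of 8 goblet and intestinal genes stood at 1.65 CPM (UMIs of a gene scaled to all UMIs of the same nuclei; 240 UMIs in all), against 1627 CPM for 8 epiblast genes and 4143 CPM for 11 visceral endoderm genes, so the text follows the title. With 1 library per assay no test was possible: each bracket below is a 95% interval that covers counting error alone, and differences between embryos were not measured.

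All 15341 barcodes carried both assays. After 1154 barcodes called as doublets and barcodes of low depth were removed, 12796 nuclei (83.4%) were kept, with medians of 10471 UMIs and 17350 peak counts. RNA clusters were built with the guidance genes left out of the variable genes, and clusters were named from marker lists. The classes were epiblast-like (3022 nuclei), anterior streak, node and definitive endoderm-like (638, shortened below to streak and node-like), embryonic mesoderm-like (1219), extraembryonic mesoderm-like (689), haemato-endothelial progenitor-like (270), visceral endoderm-like (1276), parietal endoderm-like (189) and extraembryonic ectoderm-like (1094). The streak and node-like cluster was led by Zbbx, Pkd1l1, Cfap44 and Dnah5, genes known from cilia, with no gene of its marker list among its first 10. Its mean log2 fold over the primitive streak marker list was 0.646, against 1.19 in cluster 9, which stayed unnamed. The short name therefore does not place these nuclei in the primitive streak. The median depths of the classes ran from 9450 UMIs in epiblast-like to 13202 in extraembryonic ectoderm-like nuclei. Clusters with 34.3% of the nuclei stayed unnamed, among them 1 of 830 nuclei with a median of 1739 UMIs and 1 of 103 nuclei with a median of 25344; a cluster of 13 ectoplacental cone and giant cell-like nuclei was too small to describe. A class is compared throughout with all other kept nuclei, unnamed ones included. A gene is called raised at 2-fold or more and low at 0.5-fold or less.

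Guidance RNA differed widely between the classes. Of the 65 genes, 50 (76.9%) were raised in at least 1 class, against 39.1% of the 16017 genes with as many UMIs, and 60 (92.3%) were low in at least 1, against 50.4%. The 15 genes raised in none were Epha1, Ephb4, Ephb6, Efna2, Sema4c, Sema4d, Sema5a, Sema5b, Sema6b, Plxna1, Plxnb2, Robo4, Dcc, Neo1 and Unc5b. Of these genes 31 were raised in 1 class, 15 in 2 and 4 in 3 (47.7%, 23.1% and 6.15%), against 25.8%, 11.3% and 1.87% of all genes. The named class of highest RNA was epiblast-like for 15 genes (23.1%, against 13.5% of all genes), streak and node-like for 11 (16.9%, against 10.3%) and embryonic mesoderm-like for 10 (15.4%, against 8.80%). It was extraembryonic ectoderm-like for 8 (12.3%, against 18.7%), extraembryonic mesoderm-like for 7 (10.8%, against 9.81%) and parietal endoderm-like for 6 (9.23%, against 14.8%). Haemato-endothelial progenitor-like and visceral endoderm-like nuclei led for 4 each (6.15%, against 11.7% and 12.2%). Some genes were higher still in an unnamed cluster. For 29 of the 65 genes the intervals of the 2 highest classes overlapped, and the order of those 2 is not claimed. Overlap is a cautious rule, since levels with overlapping intervals can still differ beyond counting error.

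Raised genes were most frequent in the embryonic classes and the extraembryonic mesoderm. In epiblast-like nuclei 13 of the 65 genes were raised and 18 low, against 7.19% and 12.2% of all genes tested. Streak and node-like nuclei had 12 raised and 12 low (background 5.31% and 10.8%), and embryonic mesoderm-like nuclei 13 and 11 (5.0% and 14.8%). Extraembryonic mesoderm-like nuclei had 14 raised and 14 low (5.43% and 14.7%). The haemato-endothelial progenitor-like class had 5 raised and 25 low (6.01% and 17.6%). Its counts depended on the grouping: with 4 other groupings, in which no extraembryonic mesoderm-like class was named and this class held 611 to 877 nuclei instead of 270, raised genes numbered 10 to 12 and low genes 12 to 15. The share over all genes was not counted under those groupings, so this shift is not a result about guidance genes.

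In the named visceral endoderm-like, parietal endoderm-like and extraembryonic ectoderm-like classes most guidance genes were low. The unnamed cluster 7, scored as visceral endoderm, is not in these counts. Its family sums ran from 0.150-fold for slits to 2.71-fold for netrins. Visceral endoderm-like nuclei had 3 raised and 39 low (9.59% and 24.8% of all genes), parietal endoderm-like nuclei 5 and 34 (9.47% and 23.1%), and extraembryonic ectoderm-like nuclei 8 and 38 (6.59% and 24.4%). The median fold of the 65 genes was 0.329 in the visceral endoderm-like, 0.459 in the parietal endoderm-like and 0.383 in the extraembryonic ectoderm-like class, where the median over all genes was 0.866, 0.880 and 0.877. Low in all 3 together were 21 of the genes (32.3%), against 10.2% of all genes, and 18 of those 21 (85.7%) were raised in another class, as were 83.8% of all genes low in the 3. Because the median of all genes lay under 1 in these classes (log2 shifts of -0.21, -0.19 and -0.19, and -0.11 in the haemato-endothelial class), counts were repeated relative to it. Raised and low were then 5 and 38 in visceral endoderm-like (12.6% and 21.8% of all genes), 8 and 31 in parietal endoderm-like (12.3% and 20.1%), 10 and 37 in extraembryonic ectoderm-like (8.83% and 21.2%) and 6 and 21 in haemato-endothelial nuclei (7.06% and 15.9%).

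**Figure D1:**
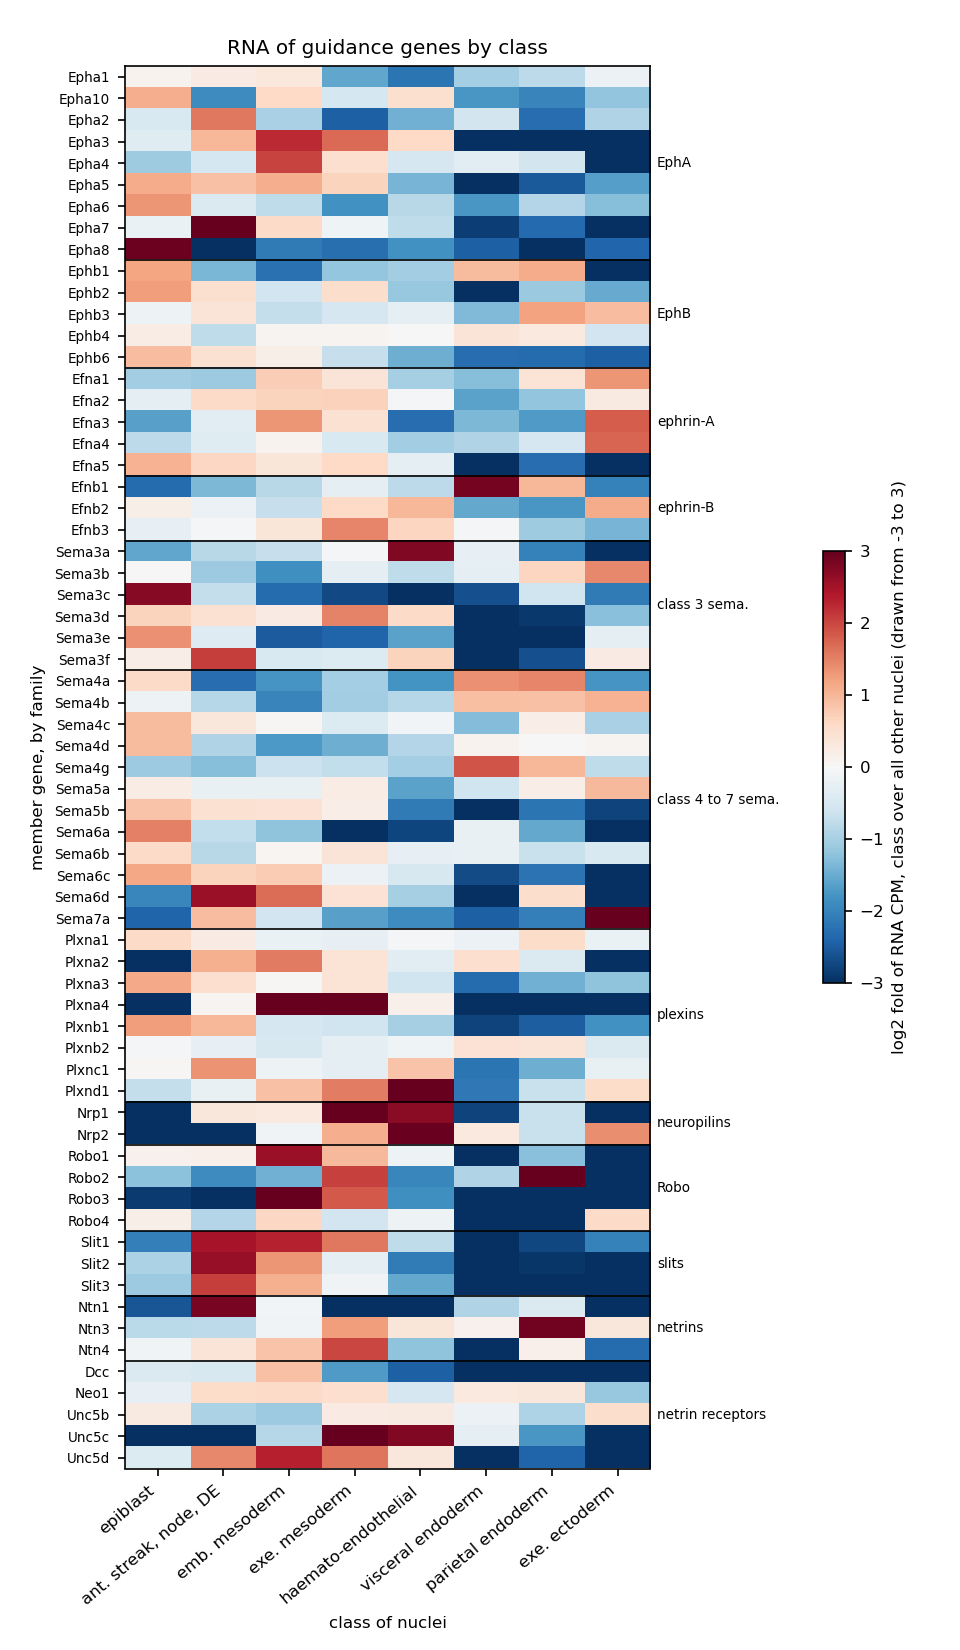
RNA of the 65 guidance genes (rows, by family) in each of the 8 classes (columns), as the log2 fold of the class CPM over all other nuclei, with colour drawn from -3 to 3. The columns for visceral endoderm-like, parietal endoderm-like and extraembryonic ectoderm-like nuclei are mostly blue (39, 34 and 38 genes low), with a few dark red cells such as Efnb1, Robo2 and Sema7a.

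Among EphA receptors, 7 of 9 were low in visceral endoderm-like (24.8% of all genes) and 7 of 9 in extraembryonic ectoderm-like nuclei (24.4%). Among the named classes the highest levels were in epiblast-like, streak and node-like or embryonic mesoderm-like nuclei. For Epha3, however, the embryonic mesoderm-like level (7.15 CPM) was not resolved from the extraembryonic mesoderm-like one (5.98 CPM). With unnamed clusters included, Epha1 (102 CPM) and Epha2 (151 CPM) were highest in cluster 9, and Epha6 (11.85 CPM) and Epha10 (2.90 CPM) in cluster 2. Summed over the 9 genes, EphA RNA stood at 577 CPM in embryonic mesoderm-like nuclei, 508 in streak and node-like, 264 in extraembryonic mesoderm-like, 216 in epiblast-like, 167 in visceral endoderm-like, 151 in haemato-endothelial, 136 in parietal endoderm-like and 78.7 in extraembryonic ectoderm-like nuclei.

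Epha7, a receptor known from closure of the neural tube, was the EphA gene with the highest fold. Its RNA was 227 CPM in streak and node-like nuclei, 51.3 in embryonic mesoderm-like, 33.3 in extraembryonic mesoderm-like, 32.6 in epiblast-like, 21.6 in haemato-endothelial, 7.26 in parietal endoderm-like, 5.64 in visceral endoderm-like and 2.26 in extraembryonic ectoderm-like nuclei. The streak and node-like class was thus 8.64-fold (8.15 to 9.17) above all other nuclei. Epha2, a receptor first described in epithelial cells, was highest in the same class at 110 CPM (103 to 118) against 36.6 in all others, a 3.01-fold difference. Epha4, which acts in sorting hindbrain segments and somites, was instead highest in embryonic mesoderm-like nuclei, at 419 CPM (408 to 430) against 102 in all others, a 4.11-fold difference. Epha4 followed at 183 CPM in extraembryonic mesoderm-like nuclei and was lowest in extraembryonic ectoderm-like nuclei, at 8.28 CPM. Epha8 was highest in epiblast-like nuclei, at 3.88 CPM (3.20 to 4.65) against 0.501 CPM in all others. These nuclei held 116 of its 174 UMIs, and the unnamed cluster 2 held 30. No Epha8 UMI was counted in streak and node-like or parietal endoderm-like nuclei, which allows up to 0.418 and 1.15 CPM there. Epha10, at 2.57 CPM in epiblast-like and 2.14 CPM in embryonic mesoderm-like nuclei, was 2.14-fold higher in epiblast-like nuclei than in all others, but the intervals of those 2 levels overlapped.

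Of the 5 ephrin-A genes, among the named classes, Efna5 was highest in epiblast-like and 3 in extraembryonic ectoderm-like nuclei, classes that led for 13.5% and 18.7% of all genes. Efna2 was raised in no class. Efna5 was at 806 CPM in epiblast-like, 718 in streak and node-like, 702 in extraembryonic mesoderm-like, 601 in embryonic mesoderm-like and 400 in haemato-endothelial nuclei, but at 100.1 in parietal endoderm-like, 31.8 in visceral endoderm-like and 12.9 in extraembryonic ectoderm-like nuclei. Efna4 went the other way, with 112 CPM (107 to 117) in extraembryonic ectoderm-like nuclei against 33.3 in all others (3.36-fold). Efna3 was at 40.6 CPM there (37.5 to 43.8; 3.54-fold), followed by 32.0 in embryonic mesoderm-like nuclei. Efna1 was at 8.72 CPM (7.33 to 10.3; 2.50-fold), with an interval that overlapped that of embryonic mesoderm-like nuclei at 6.34 CPM. Epha1 was the EphA gene with most RNA in extraembryonic ectoderm-like nuclei, at 38.5 CPM against 52.4 in its highest named class. The 3 ligands are neighbours on chromosome 3: Efna3 and Efna4 start 15063 bp apart, and Efna1 starts 41745 bp from Efna3. Per gene length Efna4 was the highest of all the members over the kept nuclei, at 90.4 CPM per 10 kb of gene, followed by Sema6a at 41.2 and Epha1 at 29.1.

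The 3 B-type ephrins led in 3 different classes: visceral endoderm-like for Efnb1, haemato-endothelial for Efnb2 and extraembryonic mesoderm-like for Efnb3. Efnb1, an X-linked ligand whose loss disturbs craniofacial boundaries, was at 102 CPM (97.3 to 107) in visceral endoderm-like nuclei, 47.0 in parietal endoderm-like, 20.1 in extraembryonic mesoderm-like, 14.1 in embryonic mesoderm-like, 14.04 in haemato-endothelial, 9.75 in streak and node-like, 6.46 in extraembryonic ectoderm-like and 5.85 in epiblast-like nuclei. The visceral endoderm-like class was 7.31-fold above all others (6.84 to 7.81). A UMI of Efnb1 was found in 59.3% of visceral endoderm-like and in 5.20% of epiblast-like nuclei, and in 33.6% and 2.48% after each nucleus was thinned to 5000 UMIs, which left out the 1609 nuclei with fewer.

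Efnb2, the arterial ephrin, had 2 high classes, haemato-endothelial at 137 CPM (124 to 151) and extraembryonic ectoderm-like at 134 CPM, with overlapping intervals. The haemato-endothelial level reached the 2-fold line only by rounding, and it is not counted as raised. Ephb4, known as its venous receptor, ranged from 20.2 CPM in streak and node-like to 42.3 in visceral endoderm-like nuclei. Efnb3 was at 24.04 CPM (20.7 to 27.8) in extraembryonic mesoderm-like nuclei against 8.65 in all others. Ephb2 was at 56.8 CPM (54.1 to 59.5) in epiblast-like nuclei, 2.39-fold above all others, and at 2.82 CPM in visceral endoderm-like nuclei. Ephb2 and Epha8 start 120828 bp apart on chromosome 4, and both led in epiblast-like nuclei.

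Ephb1 and Ephb3 had their highest class level in parietal endoderm-like nuclei, at 84.8 CPM (74.1 to 96.8) and 23.7 CPM (18.2 to 30.4). The intervals overlapped those of the next class, epiblast-like for Ephb1 (71.8 CPM, 68.8 to 74.9) and extraembryonic ectoderm-like for Ephb3 (18.1 CPM, 16.04 to 20.3). These 2 genes came from different nuclei of that class, which joins a cluster of 157 and a cluster of 32 nuclei. Ephb1 was at 97.1 CPM in the larger and 15.3 in the smaller cluster, whereas Ephb3 was at 11.2 in the larger and 94.3 in the smaller. Where the class was taken from the smaller cluster alone, Ephb1 turned from raised to 0.383-fold and Ephb3 rose to 9.19-fold. From the larger cluster alone Ephb3 stood at 1.07-fold, and with classes from accessibility clusters at 0.902-fold.

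**Figure D2:**
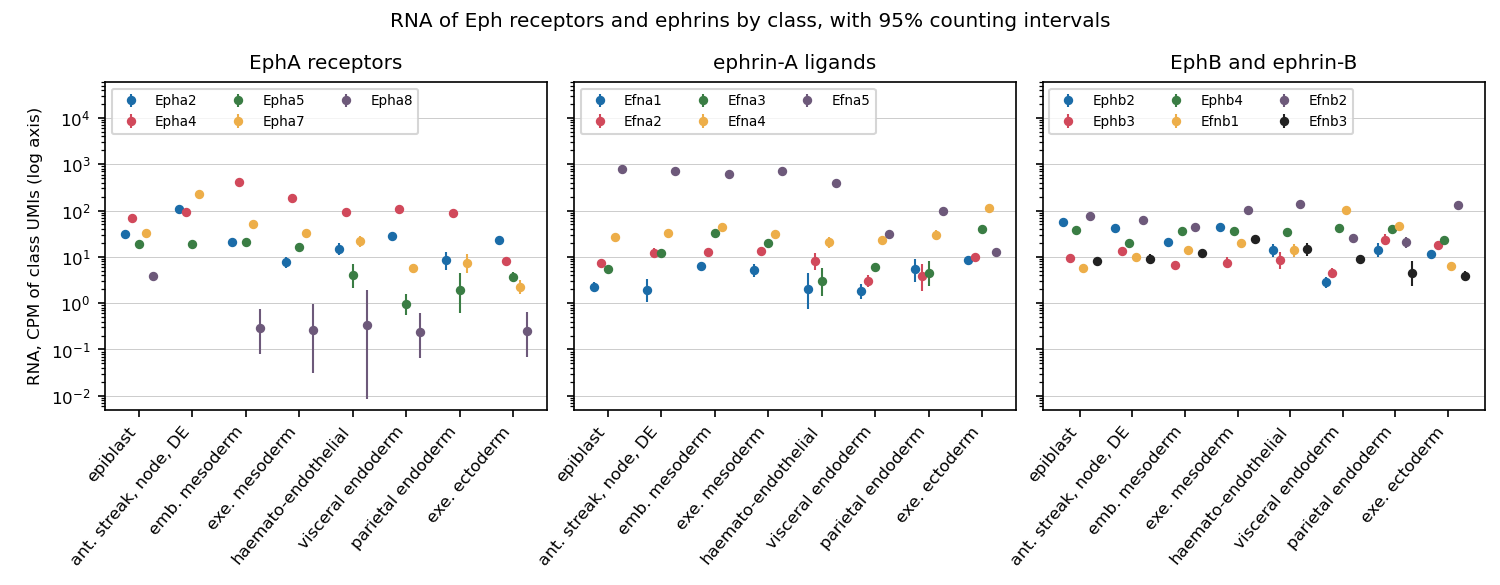
RNA of 16 Eph receptors and ephrins in the 8 classes, in CPM on a log axis, with 95% counting intervals as bars and classes with no UMI left out. Efna5 is far lower in the last 3 classes than in the first 5, while Efna3 and Efna4 peak in extraembryonic ectoderm-like nuclei and Efnb1 in visceral endoderm-like nuclei.

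The neuropilins, co-receptors for class 3 semaphorins and for vascular endothelial growth factor, were high in the mesodermal classes outside the embryo proper and nearly silent in the epiblast. Nrp1 was at 381 CPM (367 to 395) in extraembryonic mesoderm-like and 361 in haemato-endothelial nuclei, then at 76.7 in streak and node-like, 74.3 in embryonic mesoderm-like, 39.4 in parietal endoderm-like, 10.0 in visceral endoderm-like, 4.68 in epiblast-like and 3.07 in extraembryonic ectoderm-like nuclei. Its 2 highest classes had overlapping intervals and all others were well apart from them. Nrp2 was at 449 CPM (425 to 474) in haemato-endothelial, 146 in extraembryonic ectoderm-like, 131 in extraembryonic mesoderm-like, 77.5 in visceral endoderm-like, 60.9 in embryonic mesoderm-like, 41.3 in parietal endoderm-like, 10.0 in epiblast-like and 5.99 in streak and node-like nuclei. The 2 genes therefore shared the haemato-endothelial and extraembryonic mesoderm-like classes, and differed in extraembryonic ectoderm-like nuclei, where Nrp2 was raised and Nrp1 low. A UMI of Nrp1 was found in 83.7% of haemato-endothelial and 3.81% of epiblast-like nuclei, or in 74.3% and 1.88% after thinning to 5000 UMIs.

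Plxnd1, a plexin of vessel walls, followed the haemato-endothelial class as well, at 21.2 CPM (16.3 to 27.2) against 2.04 in all others, a 10.4-fold difference, with 6.37 CPM in extraembryonic mesoderm-like nuclei. Sema3a, a secreted ligand of Nrp1, was at 28.1 CPM (22.3 to 34.9) in haemato-endothelial nuclei against 4.10 in all others (6.85-fold). Where doublet calls were kept, the haemato-endothelial class grew from 270 to 877 nuclei, no extraembryonic mesoderm-like class was named, and the folds fell to 3.25 for Sema3a, 4.32 for Nrp2 and 5.63 for Plxnd1. All 3 stayed above the 2-fold line.

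Nrp1, Nrp2 and Plxnd1 had both RNA and promoter counts raised in the haemato-endothelial class, where guidance promoters as a set were raised about as often as all promoters (8.70% against 6.94%). The main peak at the Efnb1 start was more open in visceral endoderm-like nuclei. The stretches of these 4 genes before the RefSeq start are shown to place those values on a sequence, 5′ to 3′ on the gene's strand, from RefSeq's GRCm38.p6 tables, with capitals at each GGGCGG read on either strand, the core of the GC box that SP and KLF factors bind. The positions are chr8:128358823-128359072 on the plus strand for Nrp1, chr1:62703067-62703284 plus for Nrp2 (cut at the gene start in the deposited table), chr6:115995006-115995255 minus for Plxnd1 and chrX:99135811-99136060 plus for Efnb1.
Nrp1: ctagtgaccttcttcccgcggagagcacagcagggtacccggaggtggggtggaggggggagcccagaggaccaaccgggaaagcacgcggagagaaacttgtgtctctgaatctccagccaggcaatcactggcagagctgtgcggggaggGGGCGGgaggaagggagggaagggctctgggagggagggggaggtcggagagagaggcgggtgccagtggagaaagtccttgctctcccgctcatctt
Nrp2: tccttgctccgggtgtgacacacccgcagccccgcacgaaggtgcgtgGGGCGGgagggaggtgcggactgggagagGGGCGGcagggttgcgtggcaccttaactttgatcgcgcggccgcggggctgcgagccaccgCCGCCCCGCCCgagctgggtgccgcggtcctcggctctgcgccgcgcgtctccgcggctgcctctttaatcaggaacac
Plxnd1: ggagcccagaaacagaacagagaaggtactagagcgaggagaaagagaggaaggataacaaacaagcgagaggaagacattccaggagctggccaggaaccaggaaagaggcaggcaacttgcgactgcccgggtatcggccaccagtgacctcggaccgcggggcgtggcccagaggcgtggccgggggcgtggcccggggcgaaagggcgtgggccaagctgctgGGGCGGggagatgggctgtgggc
Efnb1: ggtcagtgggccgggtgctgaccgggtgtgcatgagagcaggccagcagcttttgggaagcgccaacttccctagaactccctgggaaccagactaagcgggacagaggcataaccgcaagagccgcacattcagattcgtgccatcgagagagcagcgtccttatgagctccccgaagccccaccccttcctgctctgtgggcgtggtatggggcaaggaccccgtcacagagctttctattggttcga
Nrp1 and Plxnd1 hold 1 match each, Nrp2 holds 4, of which 2 overlap, and Efnb1 holds none. Each stretch lies within an accessibility peak. In haemato-endothelial nuclei the counts at these promoters, as CPM of all peak counts, were 31.2 against 8.99 in all others for Nrp1 (3.47-fold, 2.72 to 4.36), 40.5 against 24.2 for Nrp2 (1.68-fold, 1.35 to 2.06) and 67.3 against 43.1 for Plxnd1 (1.56-fold, 1.32 to 1.83). In visceral endoderm-like nuclei the peak over the Efnb1 stretch was at 21.8 against 13.1 CPM (1.67-fold, 1.45 to 1.91), and all Efnb1 promoter peaks summed to 31.0 against 20.7 CPM, just under the line of 1.5-fold used for promoters.

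The GC box letters were common among guidance promoters. In the 250 bases before each start, 54 of 76 promoters of the 60 matched genes held GGGCGG on either strand (71.1%), against 54.6% of the 15218 promoters of genes with at least 100 UMIs and 32.7% of all 32851 in the table. The letters AGATAA, searched on both strands for zinc finger factors of the haematopoietic lineage, were in 3 of the 76 (3.95%, against 6.17% for genes with at least 100 UMIs). The core of ETS factor sites, searched as CCGGAAG, was in 2 of them (2.63%, against 12.3%). These are matches of letters, not binding. The median promoter GC content, over windows of 300 bases, was 64.7% for guidance genes and 60.3% for genes with as many UMIs. The genes were also long, with a median span of 104924 bp against 24764 bp, from 4636 bp for Efna4 to 1555468 bp for Robo2.

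The 6 tested class 3 semaphorins led in 5 different classes, but for Sema3b and Sema3d the intervals of the 2 highest classes overlapped. Sema3c was at 12.4 CPM (11.1 to 13.7) in epiblast-like nuclei against 1.87 in all others (6.60-fold, or 10.1-fold among nuclei with at least 2000 UMIs and 2000 peak counts). Sema3f was at 59.9 CPM (54.4 to 65.8) in streak and node-like nuclei against 14.2 in all others (4.21-fold) and at 1.62 CPM in visceral endoderm-like nuclei. Sema3b and Sema3f start 96327 bp apart on chromosome 9, and their highest classes differed, extraembryonic ectoderm-like for Sema3b and streak and node-like for Sema3f. In visceral and parietal endoderm-like nuclei 4 of the 6 tested genes of this class were low, beside 24.8% and 23.1% of all genes.

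Among the named classes, the membrane-bound semaphorins of classes 4 to 7 had 6 of 12 tested genes highest in epiblast-like nuclei, against 13.5% of all genes. Of those 6 only Sema6a and Sema6c were raised there, and for Sema5b, Sema6b and Sema6c the interval overlapped that of the next class. Sema6a, a transmembrane ligand of class A plexins, was at 1069 CPM there (1057 to 1081), 454 in visceral endoderm-like, 316 in streak and node-like, 237 in embryonic mesoderm-like, 182 in parietal endoderm-like, 78.1 in haemato-endothelial, 45.6 in extraembryonic mesoderm-like and 23.2 in extraembryonic ectoderm-like nuclei. Sema6d, also a class A plexin ligand, had another pattern, with 107 CPM (99.3 to 115) in streak and node-like and 58.6 in embryonic mesoderm-like nuclei but 6.75 in epiblast-like nuclei; its fold of 5.99 in the first fell to 3.94 where doublet calls were kept. Sema7a, the member anchored by a lipid, was at 29.3 CPM (26.7 to 32.1) in extraembryonic ectoderm-like nuclei, 11.3 in streak and node-like and at most 4.28 in the other classes, and was thus 8.72-fold above all other nuclei in the first. Sema4g was at 19.4 CPM (17.3 to 21.6) in visceral endoderm-like nuclei against 5.22 in all others. The interval overlapped that of parietal endoderm-like nuclei (13.4 CPM, 9.32 to 18.6). Sema4a was at 15.7 CPM in parietal endoderm-like and 12.97 in visceral endoderm-like nuclei, with overlapping intervals. In the smaller parietal endoderm cluster alone Sema4a stood at 0.865-fold.

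The class A plexins, receptors for class 6 semaphorins, differed from one another. Plxna3 was highest in epiblast-like nuclei, at 10.9 CPM (9.75 to 12.2; 2.18-fold), with an interval that overlapped that of streak and node-like nuclei (8.64 CPM). Plxna2 and Plxna4 were low in epiblast-like nuclei. Plxna4 was at 176 CPM (167 to 186) in extraembryonic mesoderm-like, 157 in embryonic mesoderm-like, 32.5 in haemato-endothelial, 30.9 in streak and node-like, 1.91 in parietal endoderm-like, 1.67 in epiblast-like, 0.878 in extraembryonic ectoderm-like and 0.480 in visceral endoderm-like nuclei. Its 8.34-fold difference in the first class was 5.20-fold at a finer clustering (resolution 2). Plxna2 was at 296 CPM (287 to 305) in embryonic mesoderm-like and 236 in streak and node-like nuclei, yet also at 160 in visceral endoderm-like nuclei, and at 8.36 in epiblast-like nuclei. Plxna1 and Plxnb2 were nearly even: Plxnb2 ran from 29.2 CPM in embryonic mesoderm-like to 51.3 in visceral endoderm-like nuclei.

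Slits and Robo receptors had different leading classes. All 3 slits were highest in streak and node-like nuclei, and their summed RNA was 1828 CPM there, 908 in embryonic mesoderm-like, 417 in extraembryonic mesoderm-like, 240.2 in epiblast-like, 139 in haemato-endothelial, 40.5 in parietal endoderm-like, 31.3 in extraembryonic ectoderm-like and 17.8 in visceral endoderm-like nuclei. Robo RNA summed to 2399 CPM in embryonic mesoderm-like, 1173 in extraembryonic mesoderm-like, 805 in parietal endoderm-like, 643 in streak and node-like, 631 in epiblast-like, 533 in haemato-endothelial, 43.9 in visceral endoderm-like and 22.0 in extraembryonic ectoderm-like nuclei. The visceral endoderm-like and extraembryonic ectoderm-like classes thus had little of either side.

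Slit3 reached 1008 CPM (985 to 1032) in streak and node-like nuclei against 240.3 in all others (4.20-fold), and 530 in embryonic mesoderm-like nuclei. Slit2 was at 786 CPM (766 to 807) against 128 in all others (6.12-fold). Slit1 was at 34.0 CPM (29.9 to 38.5) in streak and node-like, 27.1 in embryonic mesoderm-like and 20.3 in extraembryonic mesoderm-like nuclei, and its first 2 intervals overlapped. The 3 genes kept this order of classes down to extraembryonic mesoderm-like nuclei.

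Robo1 was at 2380 CPM (2354 to 2406) in embryonic mesoderm-like nuclei, 1079 in extraembryonic mesoderm-like, 635 in streak and node-like, 618 in epiblast-like, 525 in haemato-endothelial, 246 in parietal endoderm-like, 29.8 in visceral endoderm-like and 18.5 in extraembryonic ectoderm-like nuclei, 6.05-fold (5.97 to 6.14) above all others in the first. Robo3, a divergent member of the family, had the same 2 leading classes at 7.97 CPM (6.53 to 9.62) and 3.77 CPM; its fold was 15.7 in the first, and 23.8 at a coarser clustering (resolution 0.5). Robo3 had no UMI in visceral endoderm-like, parietal endoderm-like or extraembryonic ectoderm-like nuclei, which allows up to 0.180, 1.15 and 0.188 CPM.

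Robo2 had the highest fold of all members. It was at 560 CPM (531 to 589) in parietal endoderm-like nuclei, 88.9 in extraembryonic mesoderm-like, 14.1 in visceral endoderm-like, 12 in epiblast-like, 9.66 in embryonic mesoderm-like, 6.96 in streak and node-like, 6.51 in haemato-endothelial and 2.45 in extraembryonic ectoderm-like nuclei. Parietal endoderm-like nuclei were 37.1-fold above all others (34.7 to 39.7). Both clusters of that class carried Robo2, at 457 CPM in the larger and 1142 CPM in the smaller, and no single nucleus gave more than 3.48% of the class total. Robo1 differed between them, at 85.0 CPM in the larger and 1157 CPM in the smaller cluster. A Robo2 UMI was found in 75.7% of parietal endoderm-like and 1.74% of extraembryonic ectoderm-like nuclei (63.7% and 0.567% after thinning). With classes taken from accessibility clusters the parietal endoderm-like class grew to 789 nuclei and the Robo2 fold was 8.80.

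Ntn1 and the receptor gene Unc5c led in different classes. Ntn1, the founding netrin, was at 423 CPM (408 to 438) in streak and node-like nuclei, 72.5 in embryonic mesoderm-like, 56.6 in parietal endoderm-like, 43.2 in visceral endoderm-like, 15.7 in epiblast-like, 5.48 in haemato-endothelial, 5.46 in extraembryonic mesoderm-like and 3.26 in extraembryonic ectoderm-like nuclei. This was 7.21-fold (6.91 to 7.52) above all others, and a Ntn1 UMI was found in 86.1% of streak and node-like and 2.59% of haemato-endothelial nuclei (74.1% and 1.61% after thinning). Ntn4, a netrin of basement membranes, was at 10.8 CPM (8.59 to 13.4) in extraembryonic mesoderm-like nuclei against 2.69 in all others. Ntn3 was at 12.6 CPM (8.68 to 17.7) in parietal endoderm-like nuclei against 1.69 in all others, and at 9.44 CPM in the larger and 30.6 CPM in the smaller cluster of that class. The Ntn3 fold of 7.49 was 17.0 in the smaller cluster alone and 2.44 with classes from accessibility clusters.

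Unc5c, a repulsive netrin receptor, was the second gene by fold. It was at 931 CPM (910 to 953) in extraembryonic mesoderm-like nuclei, 484 in haemato-endothelial, 65.8 in visceral endoderm-like, 45.6 in embryonic mesoderm-like, 23.7 in parietal endoderm-like, 5.99 in streak and node-like, 5.21 in epiblast-like and 1.38 in extraembryonic ectoderm-like nuclei. Extraembryonic mesoderm-like nuclei were 29.8-fold above all others (28.7 to 31.0). A Unc5c UMI was found in 75.8% of extraembryonic mesoderm-like and 1.55% of extraembryonic ectoderm-like nuclei (66.3% and 0.850% after thinning). The 2 classes with most Unc5c had little Ntn1, and the streak and node-like class with most Ntn1 had little Unc5c. Unc5d was instead spread over embryonic mesoderm-like (80.0 CPM, 75.3 to 84.9), extraembryonic mesoderm-like (60.1) and streak and node-like nuclei (54.7).

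Neo1 lay between 71.5 CPM in extraembryonic ectoderm-like and 212 CPM in streak and node-like nuclei. Unc5b lay between 39.5 CPM in embryonic mesoderm-like and 111 CPM in extraembryonic ectoderm-like nuclei. Dcc was at 28.3 CPM (25.6 to 31.3) in embryonic mesoderm-like and 12.9 in epiblast-like nuclei, but its highest levels were in unnamed clusters, at 53.8 CPM in cluster 2 and 63.5 CPM in cluster 9. With the guidance genes allowed among the variable genes the Dcc fold in its leading class fell under 1, to 0.878.

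**Figure D3:**
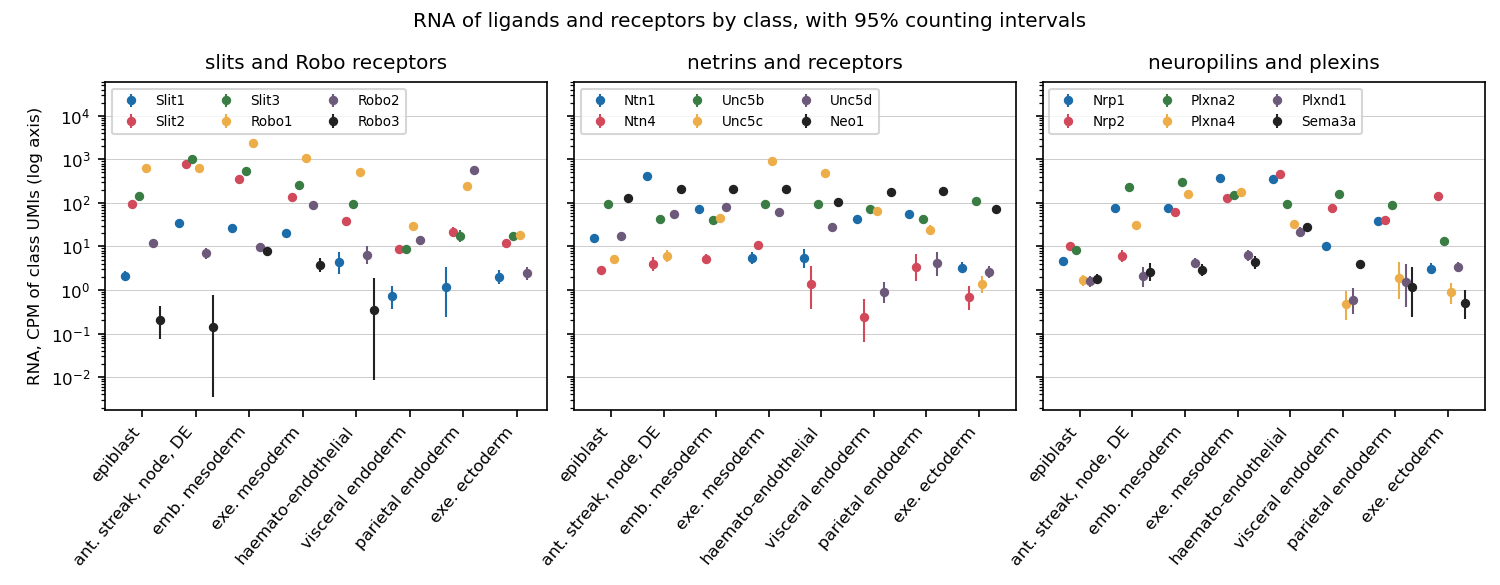
RNA of slits with Robo receptors, of netrins with their receptors, and of neuropilins with plexins and Sema3a, in the 8 classes, in CPM on a log axis with 95% counting intervals as bars; classes with no UMI are left out. Slit2, Slit3 and Ntn1 peak in streak and node-like nuclei, Robo1 in embryonic mesoderm-like, Robo2 in parietal endoderm-like and Unc5c in extraembryonic mesoderm-like nuclei.

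The unnamed clusters differed in their guidance RNA. Cluster 2 (1229 nuclei, scored as epiblast with primitive streak close behind) had 1056 CPM of Sema6a, 598 of Slit3 and 236 of Sema3e. Cluster 9 (726 nuclei, scored as primitive streak but not named because of its leading genes, which include Foxa2 and Apela) had 1001 CPM of Slit3, 916 of Sema6a, 561 of Slit2, 239.5 of Ntn1, 151 of Epha2 and 102 of Epha1. It thus had Sema6a near the epiblast-like level and Slit2, Slit3 and Ntn1 above those of all named classes but the streak and node-like one, and its Epha1, Epha2 and Dcc were above every named class. Cluster 7 (921 nuclei, scored as visceral endoderm with parietal endoderm as a rival) had 573 CPM of Efna5, 325 of Plxna2, 266 of Epha4, 187 of Ntn1 and 186 of Nrp1, whereas named visceral endoderm-like nuclei had 31.8 of Efna5 and 43.2 of Ntn1. Cluster 17 (124 nuclei, with primitive streak and primordial germ cell scores) had the highest Efna1, at 25.2 CPM. Cluster 12 (453 nuclei, scored as extraembryonic ectoderm with ectoplacental cone close behind) was below all other nuclei in the summed RNA of each of the 12 families, among them Robo at 21.2 CPM (0.0338-fold), netrins at 6.14 CPM (0.0724-fold) and EphA at 45.8 CPM (0.163-fold). Not every single gene was low in it: Sema4d had its highest level there, at 57.0 CPM, near the 53.6 CPM of epiblast-like nuclei.

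Downstream and co-acting genes of the same pathways, a list of 45 of which 43 had at least 100 UMIs, were described in the same way. Of the 43, 4 were raised and 9 low in epiblast-like, 4 and 4 in streak and node-like, 5 and 8 in embryonic mesoderm-like, 5 and 8 in extraembryonic mesoderm-like, 5 and 12 in haemato-endothelial, 2 and 15 in visceral endoderm-like, 4 and 17 in parietal endoderm-like and 2 and 17 in extraembryonic ectoderm-like nuclei, beside the same backgrounds as above. Mical2, of a family of actin-oxidizing enzymes that act below plexins, was at 46.2 CPM in parietal endoderm-like nuclei, 25.4-fold above all others. Vav3, an exchange factor below Eph receptors, was at 359.5 CPM in haemato-endothelial nuclei (17.1-fold). Ntng1, a membrane-anchored netrin relative, was at 64.0 CPM in embryonic mesoderm-like and 51.6 in extraembryonic mesoderm-like nuclei. L1cam, an adhesion partner of Nrp1, was at 49.8 CPM in extraembryonic mesoderm-like nuclei (7.34-fold). Flrt2, a ligand of Unc5 receptors, was at 71.9 CPM in parietal endoderm-like and 53.5 in streak and node-like nuclei. Dscam, an adhesion protein also described as a netrin receptor, was at 116 CPM in parietal endoderm-like and 67.8 in visceral endoderm-like nuclei.

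Few guidance promoters were more open in a class. Promoter peaks were those from 1000 bp before to 100 bp after a gene start, and 69 of the 70 genes had one with at least 100 counts (Sema6d had none); raised here means at least 1.5-fold. Raised promoters numbered 6 of 69 in epiblast-like (background 12.2%), 2 in streak and node-like (4.93%), 3 in embryonic mesoderm-like (5.49%), 3 in extraembryonic mesoderm-like (5.70%), 6 in haemato-endothelial (6.94%), 2 in visceral endoderm-like (7.83%), 2 in parietal endoderm-like (8.27%) and 1 in extraembryonic ectoderm-like nuclei (6.55%). These shares, from 1.45% to 8.70%, lay near or under the background: the haemato-endothelial share of 8.70% was close to its background, and with classes from accessibility clusters that count was 3. No background was counted for those clusters. The 6 in haemato-endothelial nuclei were Nrp1, Nrp2, Plxna2, Plxnd1, Robo4 and Unc5c, and the RNA of Nrp1, Nrp2, Plxnd1 and Unc5c was raised in the same nuclei. The Robo4 promoter was at 13.1 against 5.15 CPM there (2.54-fold, 1.71 to 3.65), while its RNA was at 0.685 CPM. The highest promoter folds were those of Sema4a in visceral endoderm-like nuclei (35.4 against 9.58 CPM, 3.69-fold), Epha10 in epiblast-like nuclei (3.84 against 1.09 CPM, 3.51-fold) and Nrp1 in haemato-endothelial nuclei.

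Peaks away from promoters were taken from 50000 bp before the first to 50000 bp after the last start of a gene. For Sema6d, whose starts lie far apart, this takes in the long stretch between them. Distal sums were raised above the background share most clearly in embryonic mesoderm-like nuclei. Raised distal sums numbered 4 of 68 in epiblast-like (background 9.91%), 7 in streak and node-like (8.58%), 13 in embryonic mesoderm-like (7.98%), 7 in extraembryonic mesoderm-like (6.83%), 5 in haemato-endothelial (7.25%), 7 in visceral endoderm-like (18.6%), 5 in parietal endoderm-like (17.1%) and 7 in extraembryonic ectoderm-like nuclei (17.0%). The 13 in embryonic mesoderm-like nuclei, 19.1% of the genes, were Epha5, Epha7, Nrp1, Plxna2, Plxna4, Robo1, Sema3d, Sema5b, Sema6d, Slit1, Slit2, Unc5c and Unc5d. With peaks within 20000 bp, where 67 genes could be counted, 12 were raised in embryonic mesoderm-like (17.9%, against 10.3% of all genes), 10 in epiblast-like (14.9% against 12.6%) and 4 in extraembryonic ectoderm-like nuclei (5.97% against 18%). Around Unc5c the distal sum was 25.7 against 8.42 CPM in extraembryonic mesoderm-like nuclei (3.05-fold, 2.59 to 3.58), and its promoter 28.6 against 18.8 (1.52-fold). Around Robo1 the distal sum was 96.8 against 40.0 CPM in embryonic mesoderm-like nuclei (2.42-fold, 2.27 to 2.58), while its promoter was at 19.2 against 21.5 CPM (0.891-fold).

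The class of highest RNA was the class of most open chromatin for some guidance genes and not for others. In 21 of 64 genes (32.8%, against 27.4% of 14788 genes) the class of highest RNA was also that of the most open promoter. In 32 (50%, against 29.0%) it was that of the most open distal sum. Epha6 and Sema3c are in this distal count by default only, since they have no distal peak. The distal share over all genes can hold such genes too. The median Pearson coefficient across the 8 classes, of log2 values with 1 CPM added, was 0.677 for promoters and 0.664 for distal sums, against 0.380 and 0.397 over all genes; the 8 points share their nuclei, so that this is a description. For 15 genes (23.4%, against 31.2% of the 14788 genes) the promoter was less open in the class of highest RNA than in all other nuclei. Ntn3 differed most, at 12.9 against 21.4 CPM in parietal endoderm-like nuclei (0.605-fold), followed by Efna3 in extraembryonic ectoderm-like (11.4 against 16.8, 0.679-fold) and Plxnb2 in visceral endoderm-like nuclei (35.2 against 46.3, 0.760-fold). The RNA of Plxnb2 was only 1.355-fold there, at 51.3 CPM against 51.2 in parietal endoderm-like nuclei and 68.8 in the unnamed cluster 7. Robo2 also had no more promoter signal in parietal endoderm-like nuclei, at 11.5 against 14.1 CPM (0.814-fold, 0.503 to 1.25), while its distal sum was 31.6 against 11.4 CPM (2.78-fold, 2.09 to 3.62).

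**Figure D4:**
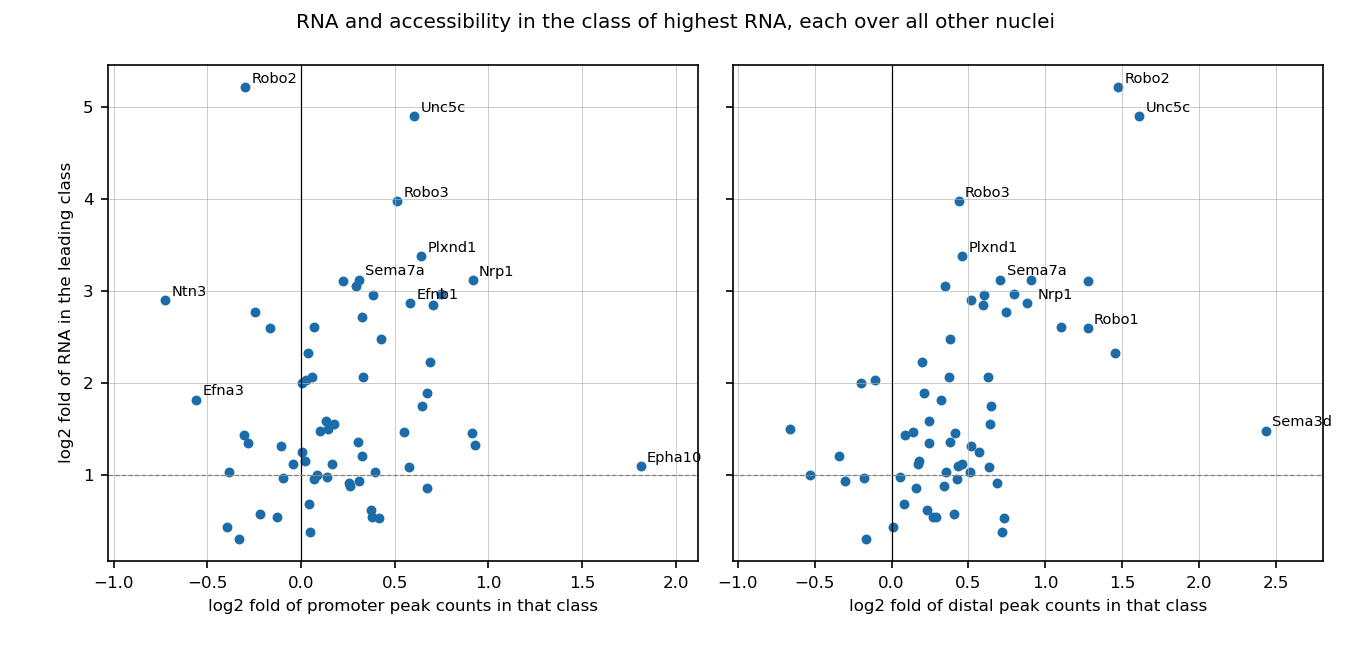
For each of 64 guidance genes, the vertical axis gives the log2 fold of RNA in the class where its RNA was highest. The horizontal axis gives the log2 fold in that class of its promoter peaks (left) or distal peaks (right, for genes that have them). Distal peaks lie from 50000 bp before the first to 50000 bp after the last start. Each fold is over all other nuclei, and the dashed line marks an RNA fold of 2. Robo2 lies left of 0 for its promoter and far right of 0 for its distal peaks, and Ntn3 and Efna3 have the lowest promoter values.

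Single peaks showed larger differences than these sums. Of 1153 peak and gene pairs with at least 100 counts, 230 of 1056 distal pairs and 4 of 97 promoter pairs were at least 4-fold higher in 1 class. The distal share, 21.8%, was the 21.8% found over the pairs of all genes, and the promoter share was 4.12% against 7.14%. How often each class led among the largest single-peak folds was not counted over all genes. A peak near several guidance genes enters once for each. One peak near Sema4b (chr7:80188592-80189479) was at 46.7 CPM in extraembryonic ectoderm-like nuclei against 1.53 in all others (30.6-fold, 25.6 to 36.6). The peak chr3:89327037-89327935, shared by Efna1, Efna3 and Efna4 and 4521 bp upstream of the start of Efna3, was at 69.7 against 4.38 CPM in the same class (15.9-fold, 14.2 to 17.9). Among the named classes this class had the highest RNA of all 3 genes. Efna1, however, was higher in the unnamed cluster 17 (25.2 against 8.72 CPM), and its interval overlapped that of embryonic mesoderm-like nuclei.

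Some distal peaks led in the class of their gene's highest RNA and others did not. A peak 4311 bp upstream of Efnb1 (chrX:99131590-99132049) was 13.3-fold higher in visceral endoderm-like nuclei (10.3 to 17.1). Inside the span of Robo1, chr16:72693545-72694360 was 13.9-fold higher in embryonic mesoderm-like nuclei (11.3 to 17.1), the class of its highest RNA. Another Robo1 peak, chr16:72656435-72657338, 6263 bp upstream of the nearest start in the deposited table, was 28.9-fold higher in parietal endoderm-like nuclei, on 78 counts (19.4 to 42.4). Robo1 RNA was 0.421-fold in that class, at 246 CPM, but far higher in its smaller cluster than in its larger one, as given above. The counts of this peak are not given by cluster. Inside the RefSeq span of Robo2, but 9493 bp upstream of the nearest start in the deposited table, chr16:74420303-74421267 was 12.4-fold higher in parietal endoderm-like nuclei, on 28 counts (6.46 to 22.0). Inside Unc5c, chr3:141549391-141550304 lay 84248 bp downstream of the start and was 8.45-fold higher in extraembryonic mesoderm-like nuclei. Plxna4 had a peak 105556 bp downstream of its start (chr6:32482178-32483094) that was 14.3-fold higher in embryonic mesoderm-like nuclei, while its RNA was highest in extraembryonic mesoderm-like nuclei. Sema3a had one 123970 bp downstream (chr5:13522840-13523719) that was 18.96-fold higher in the haemato-endothelial class, on 37 counts. Among peaks that led elsewhere than the RNA, 1 between the first and last start of Sema6d (chr2:124161937-124162835) was 22.5-fold higher in extraembryonic ectoderm-like nuclei, the class of its lowest RNA (2.07 CPM). Peaks over 50000 bp before the first or after the last start of a gene were looked up after the values were seen.

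At the Nrp2 locus different peaks led in different classes. In haemato-endothelial nuclei, peaks 38099 and 24516 bp upstream of the start (chr1:62664746-62665626 and chr1:62678326-62679213) stood at 32.0 and 42.9 CPM, 8.69-fold and 7.90-fold above all others. In extraembryonic ectoderm-like nuclei the peaks with the highest folds lay downstream, at 34603, 64195 and 68888 bp (chr1:62737866-62738745, chr1:62767466-62768328 and chr1:62772159-62773021), with 33.9, 52.9 and 14.3 CPM and folds of 31.5, 27.1 and 24.5. A peak 76629 bp downstream (chr1:62779898-62780765) led in extraembryonic mesoderm-like nuclei at 30.8 CPM (9.20-fold), and one 3319 bp upstream (chr1:62699586-62700347) in visceral endoderm-like nuclei at 14.9 CPM (10.2-fold). The promoter peak itself ranged from 20.1 CPM in parietal endoderm-like to 40.5 CPM in haemato-endothelial nuclei.

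**Figure D5:**
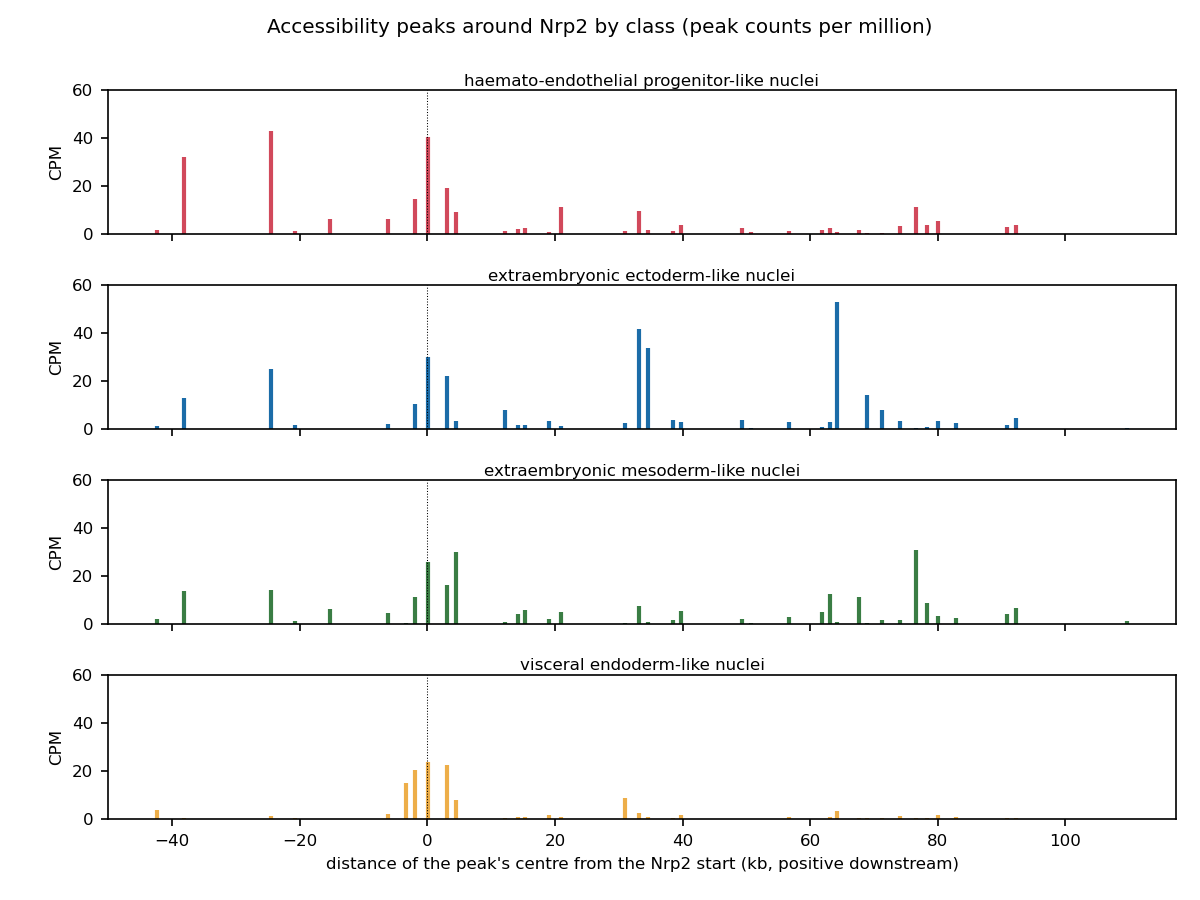
CPM of peak counts at each accessibility peak around Nrp2 in 4 classes, by the distance of the peak's centre from the gene start in kb (positive is downstream); the dotted line marks the start. Haemato-endothelial nuclei have tall upstream bars, extraembryonic ectoderm-like nuclei tall bars downstream at 33 to 69 kb, extraembryonic mesoderm-like nuclei one near 77 kb, and visceral endoderm-like nuclei bars close to the start.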

How the data were processed

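The deposited matrix holds raw counts in whole numbers, UMIs for genes and counts for accessibility peaks, with 182201512 UMIs and 273131304 peak counts over 15341 barcodes. It was written by cellranger-arc 2.0.0 per the file headers and made with Cell Ranger ARC 2.0.0 on mm10 per the submitters' processing notes; whether introns were counted was not stated in the labels or headers used here.

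Kept nuclei had 1000 or more UMIs, 500 or more genes, 1000 or more peak counts, 20% or less mitochondrial RNA, and no doublet call (7.52% of barcodes were called; scanpy 1.11.5). Clusters used 2000 variable genes without the guidance genes and the pathway list, 30 components and Leiden resolution 1 (leidenalg 0.10.2). The rule that scores cluster markers was set after the data were seen. Intervals are exact Poisson (levels) and exact conditional binomial (folds), from scipy 1.17.1. Of the nonzero peak values 86.4% were even, so peak intervals use fragments estimated as count divided by 2. A count of 0 allows up to 3 counts. The fold calculation was tested on simulated data. Alternatives changed resolution, filters, windows, centring and the source of classes.

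Genes named with values are the first 3 of each family by lower bound of the fold, the 3 highest promoter folds, the 3 largest contrasts between RNA and promoter, and the first 6 of the pathway list. Epha1, Epha2, Epha3, Epha6, Ephb4, Efna5, Sema3b, Sema3e, Sema4b, Sema4d, Sema6a, Plxna1, Plxna3, Robo4, Neo1 and Unc5b were chosen after their values were seen. Members and lists were chosen with earlier results of these data known.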

Additional observations from a re-analysis of the deposited data

How the results depend on the processing

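Counts in the haemato-endothelial class depended most on how nuclei were grouped: 5 raised and 25 low became 10 and 15 at resolution 0.5 (611 nuclei), 10 and 12 with guidance genes among the variable genes (646), 11 and 15 with accessibility clusters (641) and 12 and 13 with doublet calls kept (877), against 270 nuclei. Raised genes in visceral endoderm-like nuclei became 5 at resolution 0.5 and 5 after centring. In parietal endoderm-like nuclei they became 9 at resolutions 0.5 and 2, where 32 nuclei bore the name, 8 after centring and 9 in the smaller cluster alone, an alternative chosen after seeing the data. There Ephb1 reversed to 0.383-fold and Sema4a to 0.865-fold, as at both other resolutions, and Ephb3 reversed to 0.902-fold with accessibility clusters. Raised promoters with a window of 2000 bp became 5 in embryonic mesoderm-like, 5 in extraembryonic mesoderm-like and 1 in parietal endoderm-like nuclei, and with accessibility clusters 1 in embryonic mesoderm-like, 3 in haemato-endothelial and 1 in parietal endoderm-like nuclei. Raised distal sums within 20000 bp became 10 in epiblast-like and 4 in extraembryonic ectoderm-like nuclei. Distal peaks in place of promoters gave 32 genes with the same leading class as RNA, with Epha6 and Sema3c, which have no distal peak, counted by default. Except for centring and the distal sums within 20000 bp, the share over all genes was not counted under these alternatives. The shifts are therefore not read as results about guidance genes, and their cause was not tested. Leaving out the clusters of lowest and highest depth, also chosen after seeing the data, kept all 17 counts computed within 1.5 times. Resolution 0.5, doublet calls kept, guidance genes among the variable genes and accessibility clusters named no extraembryonic mesoderm-like class and gave no value for it. With 1 library per assay no replicate could be left out. No paired analysis was possible because the only pair of samples, RNA and accessibility of the same nuclei, is not a comparison between groups, and the labels carry no replicate numbers.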
